A study of Mus musculus with 12 samples.

Results

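The 10 genes described here, Cd68, Csf1r, Cx3cr1, Aif1, C1qa, C1qb, C1qc, Adgre1, Mrc1 and Cd163, are transcripts typical of tissue macrophages, taken from whole organs of Corti of P21 mice. They were found by their symbols among the 55348 genes counted in each library, and all 10 were among the 19052 genes with enough counts to be tested. RNA-sequencing covered 4 genotypes with 3 libraries each, namely the Clrn1-/-Clrn2-/- double mutants, the single mutants Clrn1-/- and Clrn2-/-, and wild-type. Clrn1-/- mice carry a constitutive deletion of exon 4 of Clrn1, made with a Cre driven by the ubiquitous PGK promoter, and Clrn2-/- mice carry the clarinet nonsense allele of Clrn2. Crossing both lines gave the double mutants, and wild-type mice came from breedings of their own rather than from the mutants' litters, so that genotype and breeding cannot be told apart. The stria vascularis and modiolus were removed at dissection. How many animals entered a library is not given in the sources used here, so that p-values measure the spread between these libraries.

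Clarin-1 and clarin-2, the products of the mutated genes, are tetraspanin-like membrane proteins on which hair cells, the sound receptors, depend. Macrophages reside in the healthy cochlea, depend on the receptor CSF1R for survival, and take up debris of dying cells and synapses. They secrete C1q, the starter of the classical complement cascade, and carry scavenger and chemokine receptors at their surface. In whole tissue, more macrophages and more RNA of a gene per macrophage cannot be told apart.

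Counts on genes ranged from 30008679 to 41049302 per library, and libraries of 1 genotype differed by 4.39 to 18.8 times the variance of counting alone. Wild-type replicate 3 had the lowest summed level of the 10 genes. Clrn1 stood at 25.8 ± 2.47 CPM (counts scaled to the library's total, SD, n = 3) in wild-type and 28.8 ± 2.83 CPM in Clrn2-/-, against 2.83 ± 0.184 CPM in Clrn1-/- and 2.30 ± 0.482 CPM in double mutant libraries, where exon 4 is deleted. Clrn2 stood at 2.72 ± 0.727 CPM in wild-type, 0.916 ± 0.107 CPM in Clrn1-/-, 1.23 ± 0.172 CPM in Clrn2-/- and 1.08 ± 0.138 CPM in double mutants, so that its level does not separate the Clrn1-/- from the Clrn2-/- libraries. Xist and Y-linked transcripts were both present in every library. Summed over 5 sex markers, levels were 241 to 310 CPM in the wild-type, 335 to 348 in the Clrn1-/-, 266 to 307 in the Clrn2-/- and 315 to 361 CPM in the double mutant libraries. None of the 5 was called in any comparison, and the part of sex in the macrophage gene levels was not tested. Markers of hair cells (Otof, 99.5 CPM in wild-type) and neurons (Snap25, 2622 CPM) were detected as well. Summed marker levels in wild-type averaged 460 CPM for 7 hair cell, 11353 CPM for 7 neuron and 20382 CPM for 6 Schwann cell genes.

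Promoters of 5 of the 6 genes called in double mutants are shown because PU.1, the ETS factor encoded by Spi1, is the classic regulator of macrophage genes and recognises a GAGGAA core. No window was found for Adgre1, the remaining called gene. RefSeq windows of 300 bases, from 250 before to 50 after the annotated start on GRCm38.p6, were found for 7 of the 10 genes, and capitals mark GAGGAA on either strand, which reads TTCCTC where it lies on the other strand.
Cd68, chr11:69666121-69666420, minus strand: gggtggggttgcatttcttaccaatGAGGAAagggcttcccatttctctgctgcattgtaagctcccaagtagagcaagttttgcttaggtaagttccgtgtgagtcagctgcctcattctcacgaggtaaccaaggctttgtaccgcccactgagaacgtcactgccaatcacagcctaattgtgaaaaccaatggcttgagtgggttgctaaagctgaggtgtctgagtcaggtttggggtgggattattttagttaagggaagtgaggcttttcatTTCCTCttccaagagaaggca
Aif1, chr17:35176003-35176302, minus strand: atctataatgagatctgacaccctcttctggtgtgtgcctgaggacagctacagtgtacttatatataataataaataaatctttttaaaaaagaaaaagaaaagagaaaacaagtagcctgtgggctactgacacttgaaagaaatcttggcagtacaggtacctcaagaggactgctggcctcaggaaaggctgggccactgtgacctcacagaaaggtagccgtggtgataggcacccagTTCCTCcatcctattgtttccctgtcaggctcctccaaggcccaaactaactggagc
C1qb, chr4:136886151-136886450, minus strand: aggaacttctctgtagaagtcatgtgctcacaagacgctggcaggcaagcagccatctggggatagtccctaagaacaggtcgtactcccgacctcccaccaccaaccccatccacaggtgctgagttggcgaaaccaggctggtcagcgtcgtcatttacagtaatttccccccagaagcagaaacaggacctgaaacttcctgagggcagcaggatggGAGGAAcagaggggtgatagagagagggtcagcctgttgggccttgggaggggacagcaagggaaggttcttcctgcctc
C1qc, chr4:136892865-136893164, minus strand: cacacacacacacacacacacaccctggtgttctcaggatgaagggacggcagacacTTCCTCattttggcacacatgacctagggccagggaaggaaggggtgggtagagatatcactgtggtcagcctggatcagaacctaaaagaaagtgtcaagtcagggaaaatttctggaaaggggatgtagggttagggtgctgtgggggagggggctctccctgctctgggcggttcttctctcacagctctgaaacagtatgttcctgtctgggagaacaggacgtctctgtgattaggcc
Mrc1, chr2:14229164-14229463, plus strand: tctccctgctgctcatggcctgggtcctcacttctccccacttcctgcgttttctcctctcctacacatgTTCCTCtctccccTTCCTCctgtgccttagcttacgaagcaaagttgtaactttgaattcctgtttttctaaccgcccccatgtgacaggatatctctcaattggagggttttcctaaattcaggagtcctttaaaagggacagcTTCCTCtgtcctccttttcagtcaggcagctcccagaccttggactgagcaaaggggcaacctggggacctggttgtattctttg
These 5 windows held the core, with 3 copies in Mrc1 at 180, 167 and 35 bases before the start, 2 in Cd68 at 225 bases before and 29 after it, and 1 each in C1qc at 193, C1qb at 30 and Aif1 at 7 bases before it. The windows of Cx3cr1 and Cd163 held none. GAGGAA thus occurred in 5 of 7 windows (71.4%), against 9289 of all 32851 windows (28.3%). The longer GAGGAAGT, which contains the core, was found in C1qc alone among the 7, against 3.20% of all windows. These matches are descriptions of the letters and not of binding.

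The C1q genes, which encode the 3 chains of the C1q molecule, were the most abundant of the 10 per length. In wild-type libraries, C1qa stood at 26.1 ± 3.61 CPM per kb of exon (SD, n = 3), C1qb at 24.8 ± 3.52 and C1qc at 11.95 ± 1.42 CPM per kb. Csf1r followed at 8.26 ± 1.07, Cd68 at 4.57 ± 0.478, Cx3cr1 at 4.201 ± 0.851, Mrc1 at 2.41 ± 0.542, Adgre1 at 1.92 ± 0.184, Aif1 at 0.990 ± 0.0439 and Cd163 at 0.550 ± 0.281 CPM per kb. Libraries overlapped between the neighbours C1qa and C1qb, Cd68 and Cx3cr1, and Mrc1 and Adgre1, whose order is therefore not set beyond the spread. In the mutants only these neighbours changed places. C1qb had the higher mean in each mutant, without overlap in Clrn1-/-, and Cx3cr1 had a higher mean than Cd68 in both single mutants, with overlapping libraries. In double mutants Cd68 lay above all Cx3cr1 values, where it stood at 8.65 ± 0.277 against 5.57 ± 0.651 CPM per kb.

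To ask whether the loss of either clarin or of both goes with a change in macrophage transcripts, each mutant was compared with wild-type. Calls required both an adjusted p no higher than 0.05 (edgeR quasi-likelihood test, Benjamini-Hochberg over all tested genes) and a change of at least 1.5-fold. In Clrn1-/- mice, 3 of 10 genes rose (Adgre1, Aif1 and Mrc1), whereas 3.52% of all genes were called higher. With 1 library left out this count ranged from 3 to 7, and limma-voom gave 5. In Clrn2-/- mice, Aif1 alone rose, against a background of 1.24%. Clrn1-/-Clrn2-/- mice had 6 of 10 genes higher (Cd68, Aif1, C1qb, C1qc, Adgre1 and Mrc1), against 5.88% of all genes. None of the 10 was called lower in any mutant. The median log2 fold change of the 10 genes was 0.54 in Clrn1-/-, 0.23 in Clrn2-/- and 0.68 in double mutants, while that of all genes lay within 0.0031 of 0. The 3 comparisons share their wild-type libraries and are not independent of each other. The 10 genes and the lists below were chosen with earlier results of these data known, so that counts above the background are no independent support.

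With no fold minimum, 8 of 10 genes passed the adjusted p in Clrn1-/- (background 13.6%), 1 in Clrn2-/- (7.14%) and 9 in double mutants (19.1%). The change was thus under 1.5-fold in 5 genes of Clrn1-/- and 3 of the double mutants. All 3 mutant libraries lay above all 3 wild-type libraries for 8 genes in Clrn1-/-, 1 in Clrn2-/- and 9 in double mutants, which was the case for 20.5%, 14.6% and 25.0% of all genes. Summed over the 10 genes, levels were 184, 195 and 149 CPM in the wild-type, 257, 253 and 241 CPM in the Clrn1-/-, 173, 221 and 200 CPM in the Clrn2-/- and 284, 261 and 242 CPM in the double mutant libraries. Wild-type and Clrn2-/- libraries overlapped, Clrn1-/- and double mutant libraries overlapped, and the first pair lay below the second without overlap.

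**Figure D1:**
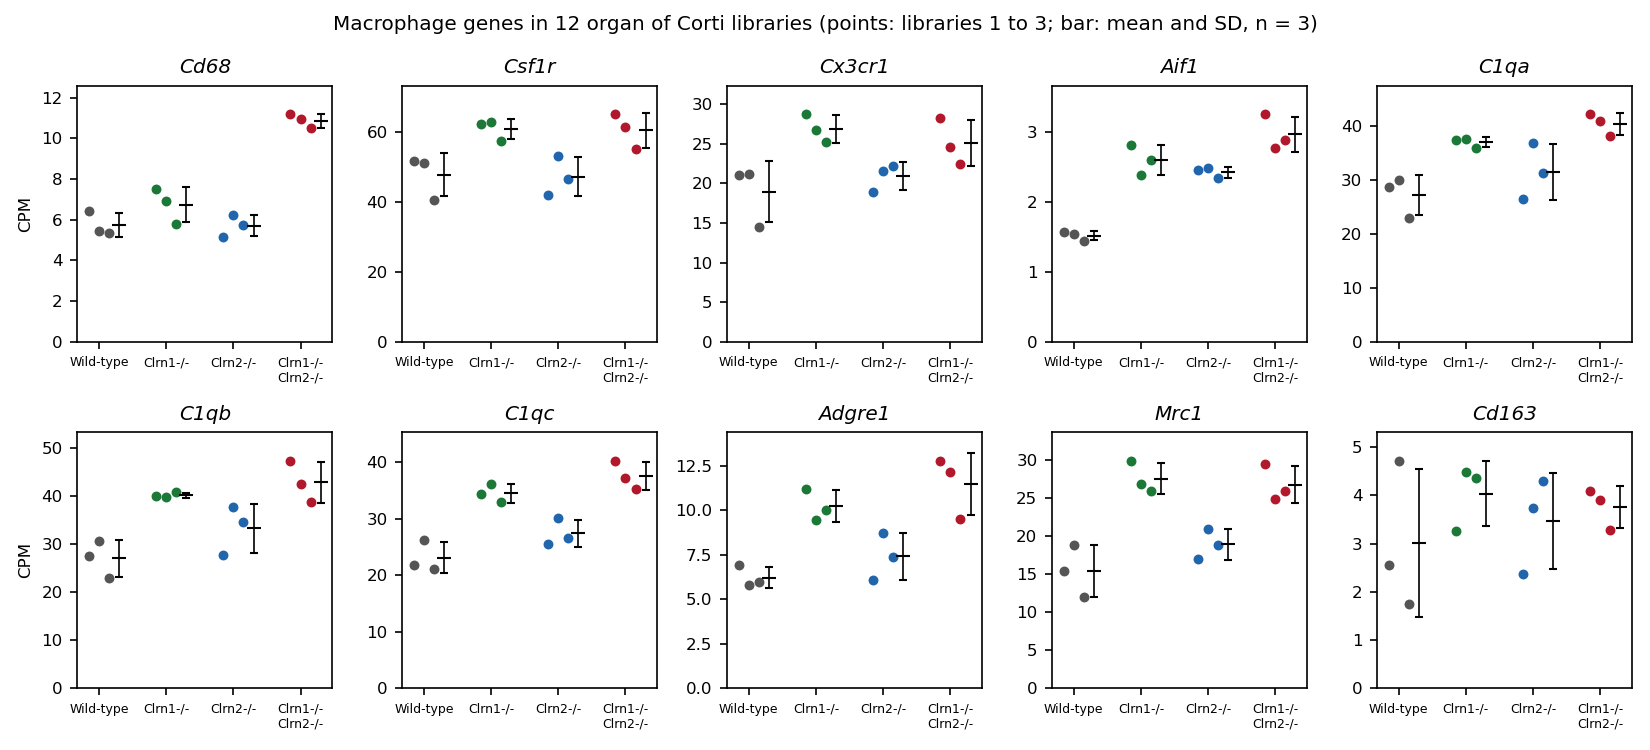
Level of each of the 10 genes (vertical axis, CPM, from 0) in the 12 libraries, by genotype (horizontal axis). Points are libraries and the bar is the mean with its SD (n = 3). Double mutant values of Cd68 (10.5 to 11.2 CPM) lie above every other library, all mutant values of Aif1 lie above wild-type, and those of Cd163 overlap throughout.

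Csf1r, the receptor for the growth factors CSF1 and IL-34, was counted at 51.6, 50.9 and 40.6 CPM in the wild-type libraries, 62.2, 62.6 and 57.4 CPM in the Clrn1-/-, 41.8, 53.0 and 46.5 CPM in the Clrn2-/- and 64.9, 61.2 and 55.0 CPM in the double mutant libraries. Clrn1-/- and double mutant libraries were all above wild-type, whereas Clrn2-/- libraries overlapped with it. The log2 fold change was 0.35 ± 0.09 (SE, adjusted p = 0.0109) in Clrn1-/-, -0.02 ± 0.09 (SE, adjusted p = 0.932) in Clrn2-/- and 0.34 ± 0.09 (SE, adjusted p = 0.00885) in double mutants, so that no difference reached 1.5-fold. Without wild-type replicate 3, the lowest library, it was 0.22 in double mutants with an adjusted p of 0.0504. Csf1r shares 873 exon bases with Hmgxb3 on the opposite strand, which the stranded counts keep apart.

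Cx3cr1 (chr9:119901616-120069879, minus strand), the receptor for fractalkine, was counted at 21.1, 21.2 and 14.5 CPM in the wild-type libraries, 28.7, 26.7 and 25.2 CPM in the Clrn1-/-, 19.0, 21.6 and 22.2 CPM in the Clrn2-/- and 28.2, 24.6 and 22.4 CPM in the double mutant libraries. Wild-type replicate 3 lay far below the other libraries, and Clrn1-/- and double mutant libraries lay above the wild-type ones. The log2 fold change was 0.51 ± 0.12 (SE, adjusted p = 0.00549) in Clrn1-/- and 0.41 ± 0.12 (SE, adjusted p = 0.0149) in double mutants, below the fold minimum, and 0.15 ± 0.12 (SE, adjusted p = 0.484) in Clrn2-/-. Leaving out wild-type replicate 3 gave 0.23 in double mutants with an adjusted p of 0.0661. In Clrn1-/-, Cx3cr1 was called without wild-type replicate 1 or without wild-type replicate 2, at 0.60 in each case.

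Among surface antigens, Adgre1 (chr17:57358691-57483527, plus strand), an adhesion G-protein-coupled receptor long used to stain mouse macrophages, was counted at 6.91, 5.81 and 5.97 CPM in the wild-type libraries, 11.2, 9.47 and 10.1 CPM in the Clrn1-/-, 6.11, 8.75 and 7.39 CPM in the Clrn2-/- and 12.8, 12.2 and 9.51 CPM in the double mutant libraries. Clrn1-/- and double mutant values did not overlap with wild-type, and 2 of the Clrn2-/- libraries exceeded it. It rose by a log2 fold change of 0.72 ± 0.13 (SE, adjusted p = 0.00101) in Clrn1-/- and 0.88 ± 0.13 (SE, adjusted p = 8.13e-05) in double mutants, which is 1.64-fold and 1.84-fold. In Clrn2-/- the value was 0.25 ± 0.14 (SE, adjusted p = 0.265).

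Mrc1 (chr2:14229392-14332057, plus strand), the mannose receptor of resident macrophages, was counted at 15.4, 18.8 and 11.9 CPM in the wild-type libraries, 29.8, 26.8 and 25.9 CPM in the Clrn1-/-, 16.9, 21.0 and 18.7 CPM in the Clrn2-/- and 29.5, 24.8 and 25.9 CPM in the double mutant libraries. The Clrn1-/- and double mutant libraries lay above all wild-type libraries, and Clrn2-/- libraries overlapped with wild-type. Mrc1 rose by 0.84 ± 0.13 (SE, adjusted p = 0.000141) in Clrn1-/- and 0.80 ± 0.13 (SE, adjusted p = 0.00011) in double mutants, or 1.79-fold and 1.74-fold, while Clrn2-/- gave 0.30 ± 0.13 (SE, adjusted p = 0.142). Cd163 (chr6:124304656-124330527, plus strand), the scavenger receptor for haemoglobin bound to haptoglobin, was the least abundant per length, with 2.56, 4.71 and 1.75 CPM in the wild-type libraries, 3.26, 4.48 and 4.36 CPM in the Clrn1-/-, 2.37, 3.73 and 4.30 CPM in the Clrn2-/- and 4.10, 3.89 and 3.27 CPM in the double mutant libraries. Its values overlapped between all genotypes, and wild-type alone spanned 1.75 to 4.71 CPM. No change was called, with log2 fold changes of 0.44 ± 0.28 (SE, adjusted p = 0.273), 0.21 ± 0.28 (SE, adjusted p = 0.69) and 0.32 ± 0.28 (SE, adjusted p = 0.408) in Clrn1-/-, Clrn2-/- and double mutants. Without wild-type replicate 2, the highest, Cd163 was called at 0.92 in Clrn1-/- and 0.80 in double mutants (adjusted p = 0.0121 and 0.019). Without wild-type replicate 3, the lowest, it gave 0.15 in Clrn1-/- and 0.027 in double mutants (adjusted p = 0.704 and 0.949), so that either library decides its value.

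Aif1 (chr17:35170991-35176068, minus strand), which encodes the actin-bundling protein IBA1, was the only one of the 10 genes called in all 3 mutants. It was counted at 1.57, 1.53 and 1.44 CPM in the wild-type libraries, 2.82, 2.38 and 2.60 CPM in the Clrn1-/-, 2.45, 2.48 and 2.33 CPM in the Clrn2-/- and 3.25, 2.76 and 2.89 CPM in the double mutant libraries. Wild-type libraries lay close together and below every mutant library. Aif1 rose by 0.77 ± 0.14 (SE, adjusted p = 0.000652) in Clrn1-/-, 0.67 ± 0.14 (SE, adjusted p = 0.00403) in Clrn2-/- and 0.96 ± 0.14 (SE, adjusted p = 4.03e-05) in double mutants. These levels rest on 56 to 112 counts per library, and the call was kept in every alternative and with every library left out.

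Cd68 (chr11:69664213-69666153, minus strand), a lysosomal glycoprotein of phagocytes, was counted at 6.43, 5.42 and 5.36 CPM in the wild-type libraries, 7.50, 6.93 and 5.79 CPM in the Clrn1-/-, 5.16, 6.21 and 5.76 CPM in the Clrn2-/- and 11.2, 10.9 and 10.5 CPM in the double mutant libraries. The double mutant libraries stood apart from all others, while the other 3 genotypes overlapped. Its log2 fold change against wild-type was 0.23 ± 0.11 (SE, adjusted p = 0.144) in Clrn1-/- and -0.01 ± 0.11 (SE, adjusted p = 0.976) in Clrn2-/-, neither past the threshold. In double mutants it rose by 0.92 ± 0.11 (SE, adjusted p = 6.1e-06), or 1.89-fold.

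The 3 C1q genes lie next to each other on the minus strand of chromosome 4, C1qb at chr4:136880129-136886187, C1qc at chr4:136889804-136893065 and C1qa at chr4:136895917-136898803 (Gencode M21, GRCm38). C1qa was counted at 28.6, 30.0 and 22.9 CPM in the wild-type libraries, 37.4, 37.6 and 35.9 CPM in the Clrn1-/-, 26.5, 36.8 and 31.2 CPM in the Clrn2-/- and 42.1, 40.9 and 38.0 CPM in the double mutant libraries. C1qb was counted at 27.5, 30.5 and 22.9 CPM in the wild-type libraries, 40.0, 39.8 and 40.7 CPM in the Clrn1-/-, 27.6, 37.6 and 34.5 CPM in the Clrn2-/- and 47.3, 42.5 and 38.8 CPM in the double mutant libraries. C1qc was counted at 21.9, 26.2 and 21.2 CPM in the wild-type libraries, 34.4, 36.2 and 32.9 CPM in the Clrn1-/-, 25.5, 30.1 and 26.7 CPM in the Clrn2-/- and 40.3, 37.2 and 35.3 CPM in the double mutant libraries. For each of the 3 genes, Clrn1-/- and double mutant libraries lay above wild-type without overlap, and Clrn2-/- libraries overlapped with wild-type.

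In double mutants, C1qb rose by a log2 fold change of 0.67 ± 0.11 (SE, adjusted p = 0.000138) and C1qc by 0.70 ± 0.08 (SE, adjusted p = 5.89e-06), or 1.59-fold and 1.63-fold, whereas C1qa, at 0.57 ± 0.10 (SE, adjusted p = 0.000385), stayed just under the fold minimum at 1.48-fold. In Clrn1-/- the values were 0.45 ± 0.10 (SE, adjusted p = 0.00457) for C1qa, 0.57 ± 0.11 (SE, adjusted p = 0.000973) for C1qb and 0.58 ± 0.08 (SE, adjusted p = 8.93e-05) for C1qc, each past the adjusted p and under 1.5-fold. The 3 genes thus kept close to one another within each mutant, and none was called in Clrn2-/-. Clrn2-/- values were 0.21, 0.30 and 0.25, for C1qa, C1qb and C1qc, with adjusted p of 0.201, 0.0792 and 0.0585. The call of C1qb in double mutants was lost without wild-type replicate 3 (0.55, adjusted p = 0.000582), and C1qb was called in Clrn1-/- without wild-type replicate 2 (0.67, adjusted p = 0.000583). C1qa was called in double mutants with library size alone, and without wild-type replicate 1, wild-type replicate 2 or double mutant replicate 3.

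**Figure D2:**
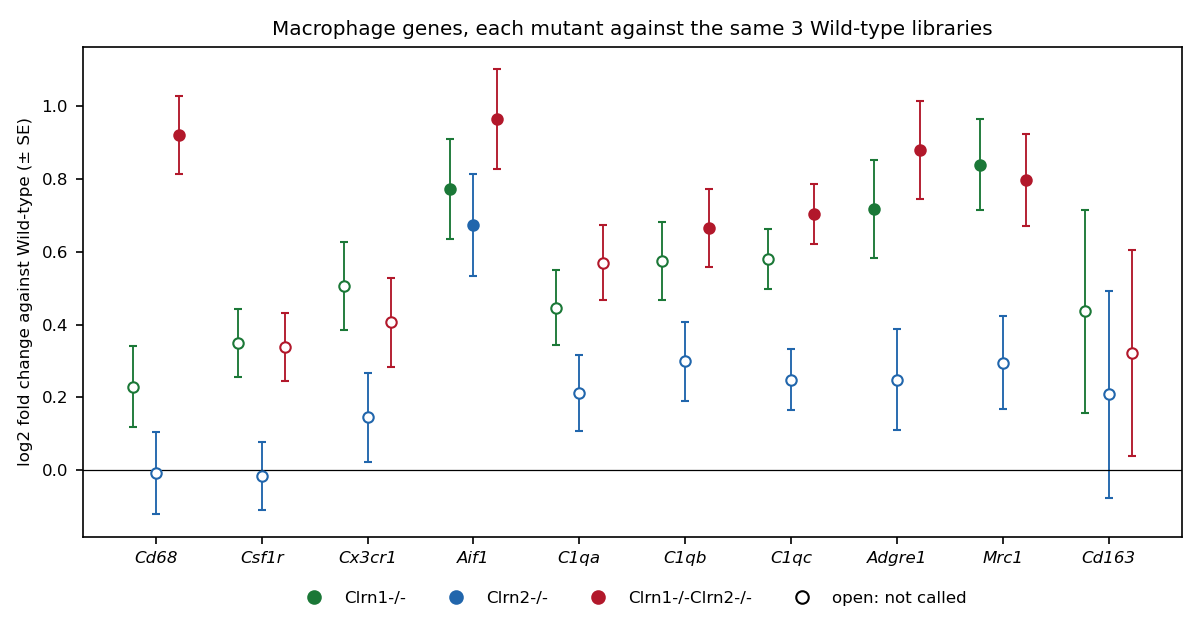
Log2 fold change against wild-type (vertical axis, with SE) of the 10 genes (horizontal axis) in Clrn1-/-, Clrn2-/- and double mutant mice. Filled points are called and open points are not. Values reach 0.96 (Aif1, double mutants), and those of Clrn2-/- lie between -0.02 and 0.30 apart from Aif1 at 0.67.

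The mutants were then compared with each other, to ask whether the levels differ with the clarin that is missing. Between Clrn1-/- and Clrn2-/-, no gene was called at both thresholds (background 2.40%), and 5 genes, Csf1r, Cx3cr1, C1qc, Adgre1 and Mrc1, were higher in Clrn1-/- by the adjusted p alone (background 9.51%). Mrc1 differed most, by 0.54 ± 0.12 (SE, adjusted p = 0.00628), followed by Adgre1 at 0.47 ± 0.13 (SE, adjusted p = 0.023). Both were called without Clrn2-/- replicate 2, at 0.63 and 0.60 (adjusted p = 0.00822 and 0.00974). In this comparison limma-voom and DESeq2 also called no gene at both thresholds.

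Between double mutants and Clrn1-/-, Cd68 alone was called, against 4.62% of all genes at both thresholds and 15.7% by the adjusted p alone. It was higher in double mutants by 0.69 ± 0.11 (SE, adjusted p = 0.000132), and without Clrn1-/- replicate 3, its lowest Clrn1-/- library, by 0.58 (adjusted p = 0.00118), just under the fold minimum. The other 9 genes gave -0.11 (Cd163) to 0.19 (Aif1). Between double mutants and Clrn2-/-, Cd68 at 0.93 ± 0.11 (SE, adjusted p = 1.73e-05) and Adgre1 at 0.63 ± 0.13 (SE, adjusted p = 0.00236) were called higher (background 3.67%), and 7 genes passed the adjusted p alone (background 14.4%). The call of Adgre1 was lost without Clrn2-/- replicate 1 (0.50) and without double mutant replicate 1 (0.54) or replicate 2 (0.57).

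Cd68 was also the only one of the 10 genes with an interaction of the 2 genotypes, that is, a double mutant change that differs from the sum of both single mutant changes on the log2 scale. The difference was 0.70 ± 0.16 (SE, adjusted p = 0.00577), against 3.58% of all genes called higher in this test and 9.32% by the adjusted p alone. Without Clrn1-/- replicate 3 it was 0.58 (adjusted p = 0.0179), under the fold minimum. The remaining genes gave -0.48 (Aif1, adjusted p = 0.0956) to 0.01 (Csf1r, adjusted p = 0.983), none of them past the adjusted p.

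Ratios within a library show how the genes moved against one another, using Csf1r as the common denominator. Cd68 per Csf1r was 0.125, 0.107 and 0.132 in the wild-type, 0.121, 0.111 and 0.101 in the Clrn1-/-, 0.123, 0.117 and 0.124 in the Clrn2-/- and 0.172, 0.179 and 0.191 in the double mutant libraries. The double mutants lay above all others without overlap. Aif1 per Csf1r was 0.0305, 0.0301 and 0.0356 in the wild-type, 0.0453, 0.0380 and 0.0452 in the Clrn1-/-, 0.0585, 0.0468 and 0.0501 in the Clrn2-/- and 0.0500, 0.0452 and 0.0525 in the double mutant libraries, with every mutant library above wild-type.

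The sum of the C1q genes per Csf1r was 1.51, 1.70 and 1.65 in the wild-type, 1.80, 1.82 and 1.91 in the Clrn1-/-, 1.90, 1.97 and 1.99 in the Clrn2-/- and 2.00, 1.97 and 2.04 in the double mutant libraries. This ratio lay above wild-type in all 9 mutant libraries, including Clrn2-/-, where the C1q genes were not called. Mrc1 per Csf1r likewise lay above wild-type in all mutant libraries, at 0.298, 0.370 and 0.294 in the wild-type, 0.480, 0.428 and 0.452 in the Clrn1-/-, 0.404, 0.395 and 0.403 in the Clrn2-/- and 0.454, 0.406 and 0.471 in the double mutant libraries. Adgre1 per Csf1r did so in Clrn1-/- and double mutants, and Cx3cr1 per Csf1r in Clrn1-/-, whereas Cd163 per Csf1r overlapped throughout. The smallest p of an exact permutation test with 3 libraries against 3 is 0.1, so that no ratio could pass a threshold of 0.05. In Clrn2-/-, Csf1r had the lowest log2 fold change of the 10 genes (-0.02), so that ratios above wild-type there depend on this denominator. The share of all genes that lie above wild-type per Csf1r was not computed.

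**Figure D3:**
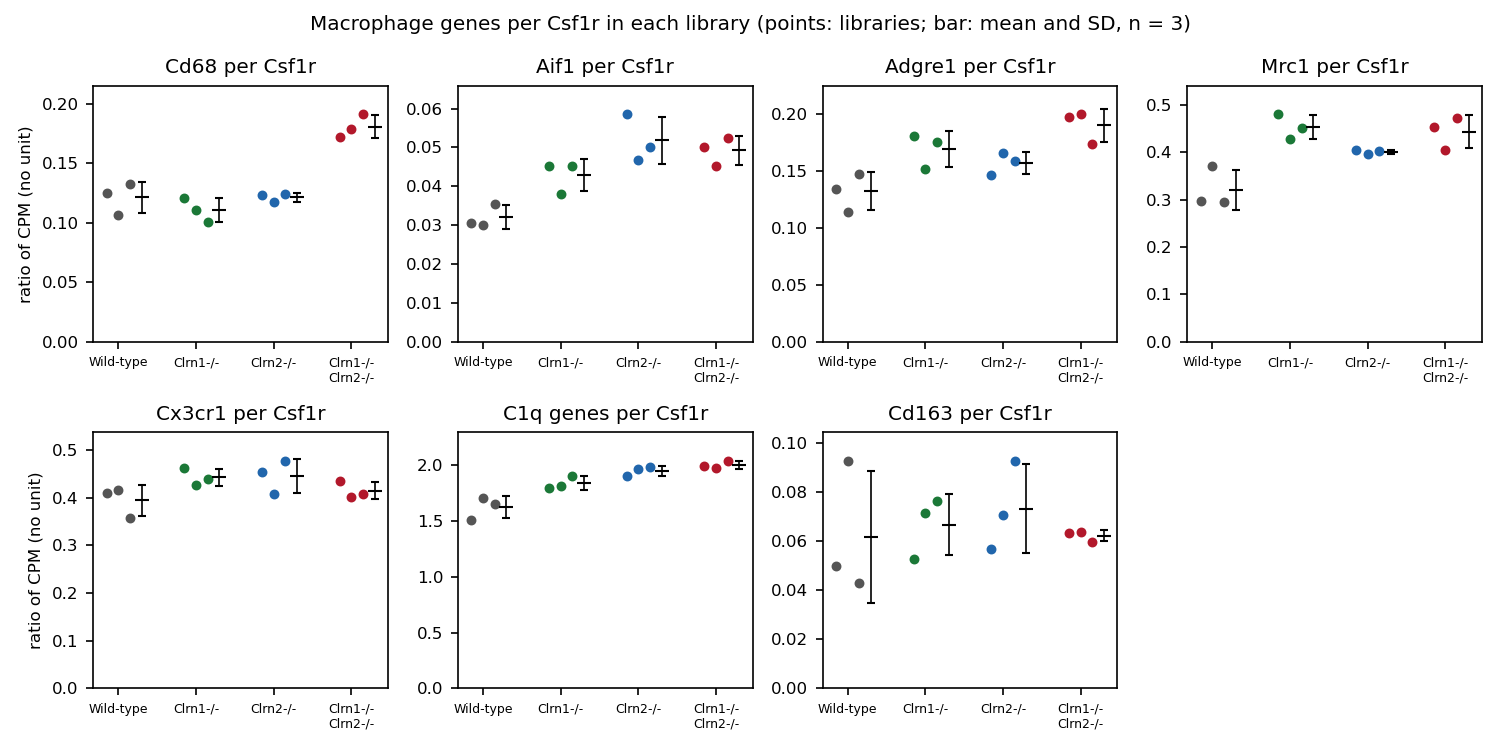
CPM of each gene, or of the 3 C1q genes together, divided by the CPM of Csf1r in the same library (vertical axes, ratio without unit, from 0), by genotype (horizontal axis). Points are libraries and the bar is the mean with its SD (n = 3). Cd68 per Csf1r is 0.172 to 0.191 in double mutants and at most 0.132 elsewhere.

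Over the 12 libraries, each gene's log2 CPM was set against the mean of the other 9, as a description over libraries that share genotype. Pearson's r was 0.986 for C1qb, 0.981 for C1qa, 0.962 for C1qc, 0.962 for Mrc1, 0.919 for Adgre1, 0.909 for Csf1r and 0.902 for Cx3cr1. Aif1 (0.810), Cd68 (0.711) and Cd163 (0.639) followed the others least. Outside the 10, the 8 genes most like their mean were Pdzrn3 (0.986), Il13ra1 (0.985), Glce (0.983), Mpeg1 (0.981), Ctss (0.972), Itgbl1 (0.967), Ncf1 (0.960) and Col3a1 (0.955). Mpeg1, Ctss and Ncf1 encode a pore-forming protein, a lysosomal protease and an oxidase subunit of phagocytes, while Col3a1 encodes a fibrillar collagen of connective tissue.

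Other macrophage genes were counted in lists, whose counts stand against the 3.52%, 1.24% and 5.88% of all genes called higher in Clrn1-/-, Clrn2-/- and double mutants. Of 18 myeloid signalling and Fc receptor genes, all tested, 4 rose in Clrn1-/-, none in Clrn2-/- and 11 in double mutants, with median log2 fold changes of 0.36, 0.19 and 0.63. In Clrn1-/- these included Cd14, a co-receptor for bacterial lipopolysaccharide, at 1.02 ± 0.11 (SE, adjusted p = 6.27e-06), and its partner Tlr4 at 0.75 ± 0.12 (SE, adjusted p = 0.000209). In double mutants Trem2, a lipid receptor of phagocytes, stood at 0.76 ± 0.13 (SE, adjusted p = 0.000244), its adaptor Tyrobp at 0.66 ± 0.12 (SE, adjusted p = 0.000341) and the Fc receptor Fcgr3 at 0.72 ± 0.10 (SE, adjusted p = 2e-05). Laptm5, the most abundant of the list, rose in double mutants by 0.61 ± 0.09 (SE, adjusted p = 3.95e-05).

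Of 18 lysosome and effector genes, 17 were tested, and 7 rose in Clrn1-/-, none in Clrn2-/- and 8 in double mutants (medians 0.45, 0.16 and 0.58). Lyz2, the lysozyme of myeloid cells, changed most, by 1.22 ± 0.08 (SE, adjusted p = 3.16e-08) in Clrn1-/- and 1.41 ± 0.08 (SE, adjusted p = 2.91e-09) in double mutants, with 0.40 ± 0.08 (SE, adjusted p = 0.0039) in Clrn2-/- below the fold minimum. Reads that fit both Lyz2 and its close paralogue Lyz1 cannot be assigned to either alone. Msr1, a scavenger receptor, rose by 1.06 ± 0.18 (SE, adjusted p = 0.000547) and 1.04 ± 0.19 (SE, adjusted p = 0.000361) in the same 2 mutants, and Ms4a7 by 0.92 ± 0.16 (SE, adjusted p = 0.000324) in double mutants.

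Among 12 genes of resident and perivascular macrophages, of which 10 were tested, 2 rose in Clrn1-/-, none in Clrn2-/- and 5 in double mutants (medians 0.49, 0.15 and 0.74). Lyve1, a hyaluronan receptor shared with lymphatic vessels, rose in double mutants by 1.21 ± 0.29 (SE, adjusted p = 0.00374) and the platelet and macrophage chemokine Pf4 by 0.85 ± 0.22 (SE, adjusted p = 0.00717), while Siglec1, a sialic acid receptor, rose in Clrn1-/- by 1.06 ± 0.26 (SE, adjusted p = 0.0064). The most abundant of this list, Gas6, a bridging ligand for dead cells, stood at 258 CPM in wild-type and gave -0.41 ± 0.05 (SE, adjusted p = 1.3e-05) in double mutants. None of 8 tested myeloid transcription factors was called against wild-type in any mutant. Spi1, which encodes PU.1, gave 0.45 ± 0.17 (SE, adjusted p = 0.0639), 0.19 ± 0.17 (SE, adjusted p = 0.526) and 0.52 ± 0.17 (SE, adjusted p = 0.0248) in Clrn1-/-, Clrn2-/- and double mutants.

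Genes enriched in microglia, the macrophages of the brain, gave few calls. Of 10 tested, none rose and 1 fell in Clrn1-/-, where 3.70% of all genes were called lower, so that this count of 1 is no result about the list. None was called in Clrn2-/-, and 2 rose in double mutants. These were P2ry13, a purine receptor, at 0.66 ± 0.17 (SE, adjusted p = 0.00716) and Sparc, a matrix protein, at 0.68 ± 0.08 (SE, adjusted p = 4.78e-06). The gene that fell, Olfml3, gave -1.60 ± 0.08 (SE, adjusted p = 9e-10) in Clrn1-/- and 0.02 ± 0.07 (SE, adjusted p = 0.85) in double mutants. At 2841 CPM in wild-type, Sparc far exceeded all the macrophage genes and is also made by connective tissue. P2ry12, a purine receptor, was not called in any mutant. Of the monocyte genes, 8 of 9 were tested, and 3 rose in Clrn1-/-, none in Clrn2-/- and 1 in double mutants, against 3.52%, 1.24% and 5.88% of all genes. With 8 genes, the counts in Clrn2-/- and double mutants were near that background. Ccr2, the receptor that draws monocytes from blood, rose in Clrn1-/- by 1.10 ± 0.23 (SE, adjusted p = 0.00205) and gave -0.10 ± 0.26 (SE, adjusted p = 0.807) in double mutants, with an interaction of -1.48 ± 0.34 (SE, adjusted p = 0.00677). Chil3 rose in Clrn1-/- by 1.17 ± 0.36 (SE, adjusted p = 0.0248), and Cd44, which many cell types express, rose by 0.65 ± 0.07 (SE, adjusted p = 9.94e-06) in Clrn1-/- and 1.19 ± 0.07 (SE, adjusted p = 6.65e-09) in double mutants.

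**Figure D4:**
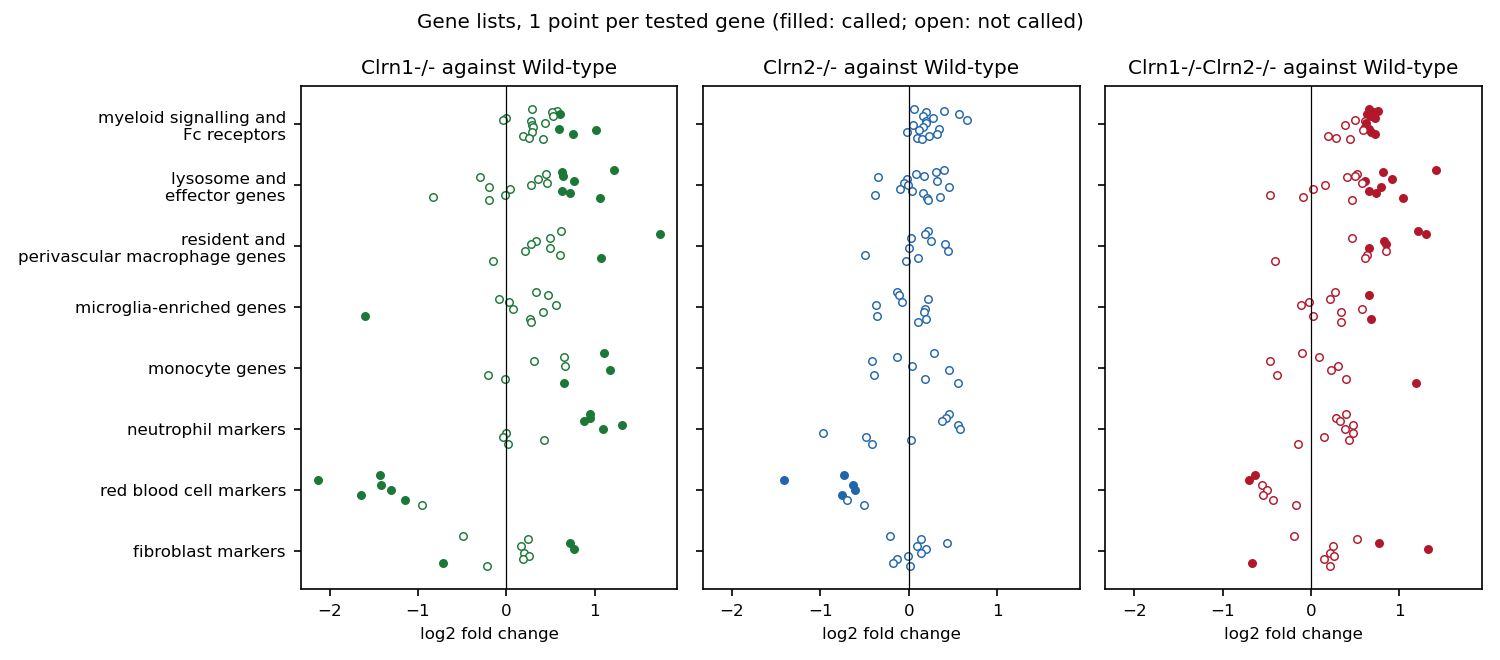
Log2 fold change against wild-type (horizontal axis) of every tested gene of 8 lists (vertical axis) in Clrn1-/-, Clrn2-/- and double mutant mice. Each point is 1 gene, filled where called and open where not. Myeloid signalling genes are filled for 4, 0 and 11 genes, neutrophil markers for 5, 0 and 0, and red blood cell markers lie below 0 in all 3 mutants.

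The ligands of the receptors did not pass both thresholds in any mutant. Csf1 stood at 23.2 ± 4.55 CPM in the wild-type, 21.1 ± 1.87 in the Clrn1-/-, 21.7 ± 1.95 in the Clrn2-/- and 22.2 ± 2.93 CPM in the double mutant libraries. Il34, the second ligand of CSF1R, gave 0.29 ± 0.06 (SE, adjusted p = 0.00147) in Clrn1-/- and 0.25 ± 0.06 (SE, adjusted p = 0.00285) in double mutants, past the adjusted p and under 1.5-fold. Cx3cl1, fractalkine, gave 0.37 ± 0.07 (SE, adjusted p = 0.000501) in double mutants, and Hp, haptoglobin, did not reach the adjusted p.

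Of 17 chemokine genes, 13 were tested, with 3 higher in Clrn1-/-, 1 higher and 1 lower in Clrn2-/-, and 3 higher in double mutants. Of all genes, 3.52%, 1.24% and 5.88% were called higher in these mutants and 1.42% lower in Clrn2-/-, so that the counts of 1 are no result about the list. Ccl9 rose by 0.86 ± 0.18 (SE, adjusted p = 0.00267) in Clrn1-/- and 0.91 ± 0.18 (SE, adjusted p = 0.00095) in double mutants. Cxcl14 rose by 0.68 in Clrn1-/- and fell in Clrn2-/- (log2 fold change -0.59) with adjusted p of 0.00122 and 0.00875. The most abundant, Cxcl12, was not called. Of 10 inflammatory cytokine and inflammasome genes, 6 were tested, with 1 higher in Clrn1-/- and 1 in double mutants, where 3.52% and 5.88% of all genes were, so that these counts of 1 are no result about the list. Casp1, which matures interleukin-1, rose in Clrn1-/- by 1.15 ± 0.31 (SE, adjusted p = 0.0116). Tgfb1, the most abundant of them, was not called, and Il6 and Tnf stayed under 0.15 CPM on average in every genotype.

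Beside C1q, 12 of 14 complement genes were tested. The receptor C5ar1 rose in all 3 mutants, by 1.04, 0.80 and 1.14 in Clrn1-/-, Clrn2-/- and double mutants (adjusted p = 0.00597, 0.049 and 0.00183). The proteases that C1q activates went another way in Clrn1-/-, where C1ra fell, at a log2 fold change of -0.91 ± 0.13 (SE, adjusted p = 0.000124), as did C1s1 at -0.86 ± 0.10 (SE, adjusted p = 1.33e-05). In double mutants they gave 0.54 ± 0.12 (SE, adjusted p = 0.00255) and 0.49 ± 0.09 (SE, adjusted p = 0.000489), under the fold minimum, and their interactions were 1.35 ± 0.18 (SE, adjusted p = 0.000124) and 1.46 ± 0.14 (SE, adjusted p = 5.31e-06). Serping1, the C1 inhibitor, rose in double mutants by 0.67 ± 0.11 (SE, adjusted p = 0.000157), and Cd55, which breaks up complement convertases, fell, at -0.68 ± 0.08 (SE, adjusted p = 8.7e-06).

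Markers of other cells moved with some of these results. The summed level of 9 neutrophil markers was 25.6, 24.6 and 9.56 CPM in the wild-type, 38.6, 34.6 and 34.8 CPM in the Clrn1-/-, 26.4, 25.6 and 22.7 CPM in the Clrn2-/- and 39.6, 18.2 and 17.2 CPM in the double mutant libraries. Wild-type replicate 3 was the lowest, as it was among the 12 libraries for 8 of the 10 macrophage genes. Of the 9 markers, 5 rose in Clrn1-/-, namely S100a8, S100a9, Ngp, Camp and Ltf, where 3.52% of all genes were called higher. None was called in Clrn2-/- or double mutants, where 1.24% and 5.88% of all genes were called higher. Camp, an antimicrobial peptide, rose most, by 1.30 ± 0.30 (SE, adjusted p = 0.00415). Red blood cell markers moved the other way, with sums of 710 to 1160 CPM in the wild-type, 286 to 389 in the Clrn1-/-, 438 to 657 in the Clrn2-/- and 547 to 738 CPM in the double mutant libraries. Of these 7 markers, 6 fell in Clrn1-/-, 5 in Clrn2-/- and 2 in double mutants, where 3.70%, 1.42% and 4.02% of all genes were called lower. Reads that fit near-identical haemoglobin genes equally well cannot be assigned to either alone. The part of blood cells in the macrophage gene levels was not tested.

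Fibroblast markers, listed after Col3a1 was seen among the most similar genes, summed to 2235, 2326 and 1866 CPM in the wild-type, 2583, 2370 and 2398 CPM in the Clrn1-/-, 2103, 2439 and 2311 CPM in the Clrn2-/- and 2901, 2888 and 2719 CPM in the double mutant libraries. Wild-type replicate 3 was again the lowest library. Of the 10 markers, 2 rose and 1 fell in Clrn1-/- and in double mutants. Of all genes, 3.52% and 5.88% were called higher and 3.70% and 4.02% lower in these 2 mutants, so that the count of 1 lower is no result about the list. Col3a1 stood at 0.72 ± 0.07 (SE, adjusted p = 4.38e-06) and 0.77 ± 0.07 (SE, adjusted p = 7.93e-07), Lum at 0.76 ± 0.09 (SE, adjusted p = 1.28e-05) and 1.32 ± 0.09 (SE, adjusted p = 1.64e-08) and Fbln1 at -0.72 ± 0.14 (SE, adjusted p = 0.00163) and -0.67 ± 0.14 (SE, adjusted p = 0.00174). None of the 10 markers was called in Clrn2-/-. Their part in the result was not tested.

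The defining markers of T cells (Cd3d, Cd3e, Cd3g) stayed under 0.5 CPM on average in every genotype, and those of NK cells under 0.12 CPM. Cd4, on the T cell list and also known from myeloid cells, rose by 1.03 ± 0.25 (SE, adjusted p = 0.00615) in Clrn1-/- and 1.83 ± 0.24 (SE, adjusted p = 1.76e-05) in double mutants. B cell, osteoclast, endothelial, Schwann cell and dividing cell markers were not called in any mutant (summed B cell markers 4.02 to 7.70 CPM in wild-type and 4.04 to 6.49 CPM in double mutants). Of 6 mast cell markers, 2 were tested, too few for a result about the list. In Clrn1-/-, Clrn2-/- and double mutants, where 3.52%, 1.24% and 5.88% of all genes were called higher, 1 of the 2 was called higher in each. In double mutants this was the protease Tpsb2, at 1.50 ± 0.54 (SE, adjusted p = 0.0408) and a mean of 0.330 CPM, against 0.120 CPM in wild-type. Mast cell proteases stayed under 0.5 CPM on average in every genotype. Hdc, the histamine-forming enzyme of that list, rose in Clrn1-/- and Clrn2-/- by 0.65 and 0.72 (adjusted p = 0.0247 and 0.0244). Neuron markers summed to 10929 to 11965 CPM in wild-type and 7381 to 7509 CPM in double mutants, where 3 of 7 fell (Snap25, Nefl and Nefh), against 4.02% of all genes called lower. Of 8 supporting cell markers, 1 rose in Clrn1-/-, 1 in Clrn2-/- and 4 in double mutants, where 3.52%, 1.24% and 5.88% of all genes were called higher. Of 7 hair cell markers, 1 rose in Clrn2-/-, 1 rose in double mutants and 1 fell in Clrn1-/-, where 3.70% of all genes were called lower. The counts of 1 are no result about these 2 lists. CPM are shares of a library, and the part of these abundant transcripts in the macrophage gene levels was not tested.

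**Figure D5:**
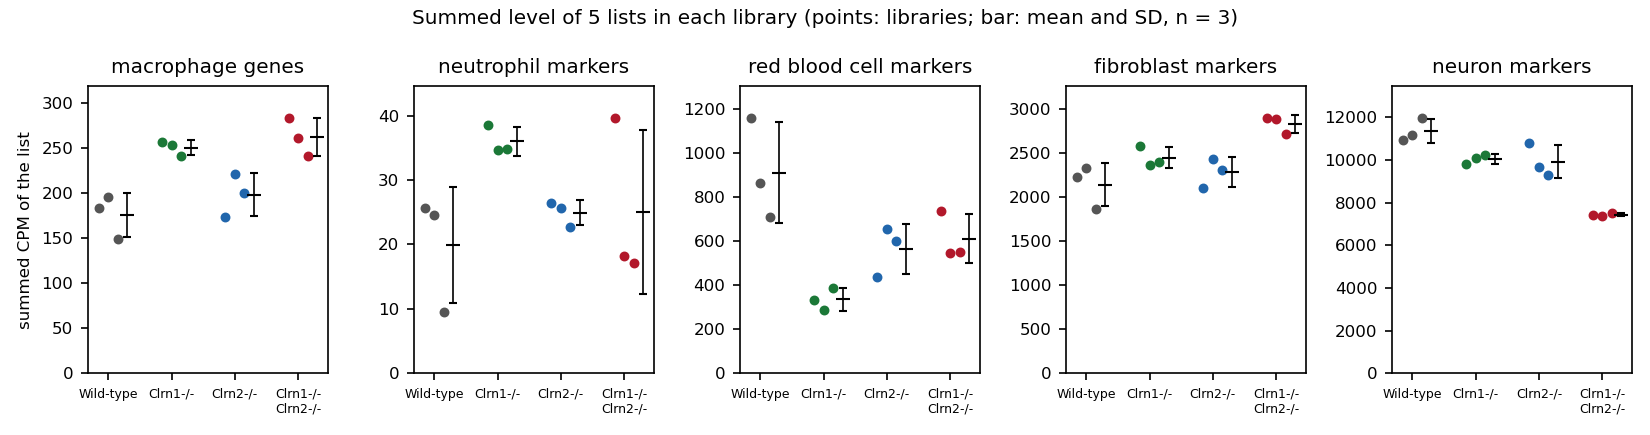
Summed CPM (vertical axes, from 0) of the 10 macrophage genes and of neutrophil, red blood cell, fibroblast and neuron markers in each library, by genotype (horizontal axis). Points are libraries and the bar is the mean with its SD (n = 3). Macrophage gene sums are 149 to 221 CPM in wild-type and Clrn2-/- and 241 to 284 CPM in Clrn1-/- and double mutants.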

How the data were processed

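RNA from organs of Corti of P21 mice was sequenced in 12 libraries, with stranded poly-A libraries and paired reads of 100 bases. The deposited values are raw counts per gene, which the authors made with STAR on GRCm38.p6 with Gencode M24 (the STAR version is not given in the sources used here), without normalization or pooling. Unassigned reads (13.5% to 15.8% of all) were left out. The reverse-strand counts were used, which made up 95.2% to 95.6% of counts over both strands. From these, CPM were computed with TMM factors. Gene lengths and coordinates came from Gencode M21, an earlier release on the same build.

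All 12 libraries were fitted together in R 4.3.3 with edgeR 4.0.16 (filterByExpr, minimum count 10, genotype alone), with 7 comparisons, and Benjamini-Hochberg adjustment over 19052 genes. Standard errors come from the test statistic. The scripts were tested on simulated data. Alternatives were limma-voom (limma 3.58.1), DESeq2 1.42.0, other scaling, filter, threshold and strand settings, a fit of only the compared genotypes, a block for the replicate number, and each library left out. Members and lists were chosen with earlier results of these data known. Named genes are all 10 members and, of each list, up to 3 called genes per direction with the largest changes and at least 1 CPM, and the most abundant. Spi1, Csf1, Il34, Hp, Tyrobp, P2ry12, S100a9, Ngp, Otof, Il6, Tnf, Cd3d, Cd3e, Cd3g, Tpsb2 and Nefh were named after their values were seen. Some genes of the lists are not reported here.

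To see whether replicate numbers pair libraries, each library's deviation from the mean of its genotype was correlated with that of its namesake. The correlation passed 0.1 in all 3 namesake pairs for wild-type with Clrn1-/- alone (0.269, 0.126 and 0.105). No label states a pairing. Libraries with different numbers were not correlated, so that these values cannot show whether the numbers pair libraries. With a block for the replicate number, Clrn1-/- against wild-type called 3 of the 10 genes, as without it.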

Additional observations from a re-analysis of the deposited data

Results flagged for a closer look

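The double mutant change of Cd68 differed from the sum of both single mutant changes, by 0.70 on the log2 scale (adjusted p = 0.00577, edgeR quasi-likelihood test), with all 3 double mutant libraries above the other 9.

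Counts on the strand opposite to Cd163, which no comparison used, averaged 1.34 CPM in Clrn1-/- and 1.60 CPM in Clrn1-/-Clrn2-/- libraries, with every one of these libraries above the wild-type values of 0.810 to 1.04 CPM. Clrn2-/- libraries had 0.753 to 1.12 CPM on that strand. These values rest on 27 to 64 counts per library. The difference was not tested, and the share of all genes above wild-type on the opposite strand was not computed. With the counts used in the comparisons, 20.5% of genes in Clrn1-/- and 25.0% in double mutants lay above wild-type in this way.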

How the results depend on the processing

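In Clrn1-/- against wild-type, 5 of the 10 genes were called with limma-voom and with library size alone, 8 with no fold minimum and 3 to 7 with 1 library left out, against 3 as reported. The added genes were C1qb and C1qc with both methods, and the count of 7 came without wild-type replicate 2, that of 5 without wild-type replicate 1, Cx3cr1 and C1qb being added in both cases. The cause was not tested. In double mutants, leaving out a library gave 5 to 8 genes. With no fold minimum, Clrn1-/- against Clrn2-/- had 5 genes and double mutants against Clrn2-/- 7. Leaving out 1 library gave 0 to 2 genes in Clrn1-/- against Clrn2-/-, 0 to 1 in double mutants against Clrn1-/-, 1 to 2 against Clrn2-/- and 0 to 1 for the interaction.

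Aif1 kept its call in Clrn2-/- in all 14 alternatives, as did Aif1, Adgre1 and Mrc1 in the other 2 mutants. Changes that were not called in Clrn2-/- turned their sign, Cd68 to 0.026 and Csf1r to 0.016 with library size alone, and with 1 library left out Cd68 ranged from -0.069 to 0.086 (0.067 without Clrn2-/- replicate 1), Csf1r from -0.12 to 0.068 (0.048, 0.037 and 0.00017 without wild-type replicate 1, wild-type replicate 2 and Clrn2-/- replicate 3), Cx3cr1 from -0.016 to 0.24 and Cd163 from -0.074 to 0.69. Namesake libraries correlated above 0.1 in 7 of 18 pairs (-0.277 to 0.301). With the replicate block, the numbers of genes called (3, 1 and 6 against wild-type, 0, 1 and 2 between mutants, 1 for the interaction) were as reported. The interaction needs all 4 genotypes, so that a fit of only the compared genotypes gave no value for it. With library size alone, the median log2 fold change of all genes was 0.041, 0.031 and 0.042 in Clrn1-/-, Clrn2-/- and double mutants against wild-type. As reported, with TMM factors, these medians lay within 0.0031 of 0. Depth limits Aif1 and Cd163 most, at 56 to 173 counts per library.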
